A study of Rattus norvegicus with 18 samples.

Results

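The machinery that takes a cell from G1 into S phase was followed through 10 genes in cultured mesenchymal stromal cells (MSCs) of rat bone marrow. These were the D-type cyclins Ccnd1, Ccnd2 and Ccnd3, their kinases Cdk4 and Cdk6, the E-type cyclins Ccne1 and Ccne2, the pocket protein Rb1, the transcription factor E2f1 and the kinase inhibitor Cdkn2b. A probe was taken where the array annotation gave it one of these symbols, which found 1 probe each for 9 of the 10 genes among 22226 probes. Ccnd3 matched no probe, and Ccnd2 was not detected on any of the 18 arrays. The other 8 genes were among the 9531 genes tested. MSCs of Sprague Dawley rats aged 3 weeks (yMSCs) and 12 months (aMSCs) were measured at passage 2 (P2), passage 30 (P30) and passage 100 (P100) on Illumina RatRef-12 BeadChips. Each of the 6 groups (yMSCs P2, yMSCs P30, yMSCs P100, aMSCs P2, aMSCs P30 and aMSCs P100) had 3 arrays, and no agent, drug or altered allele is given for any of them. The comparisons were between passages within a donor age and between donor ages at a passage, and the interaction of both.

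In G1, growth signals raise the D cyclins, which activate CDK4 and CDK6, and these kinases begin to phosphorylate RB1. Phosphorylated RB1 releases E2F factors such as E2F1, which drive the transcription of cyclin E and of the genes of DNA replication, and cyclin E with CDK2 completes the phosphorylation of RB1. CDKN2B (p15INK4b) binds CDK4 and CDK6 and keeps them from the D cyclins, and the INK4 inhibitors and RB1 are best known for holding ageing and crowded cells in G1. Much of this control acts on the proteins and their phosphorylation, which an mRNA array does not measure.

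Each value is a log2 intensity after background correction and quantile normalization between arrays, and a gene counted as detected on an array where the detection p-value, which ranks it among beads that match no rat gene, was at most 0.01. A call, higher or lower, needed both an adjusted p under 0.05 in the limma fit and a fold of at least 1.5. The P2 arrays had a lower background than the later ones. Undetected probes had a median in scanner units of 31.3 to 34.72 at P2 (6 arrays), against 51.6 to 56.19 on the 12 later arrays. For every comparison with P2, passage and this background cannot be told apart. The ratio of detected to undetected median brightness was 6.07 to 7.14 at P2 and 4.19 to 5.14 later. The study describes long-term cultures of yMSCs and aMSCs without stating how the 3 arrays of a group were drawn from them, so p-values measure only the spread between these arrays, and a difference between donor ages and one between single cultures cannot be told apart. Within a group, 3 arrays stood apart from their partners, with median absolute log2 differences over the tested genes of 0.386 and 0.367 for yMSCs P30 replicate 1, 0.273 and 0.261 for aMSCs P30 replicate 3, and 0.323 and 0.373 for aMSCs P100 replicate 2. The other pairs of arrays of a group lay between 0.115 and 0.214. Stromal markers were present throughout (8 to 10 of 10 on the array detected), but their levels moved. Against P2, 2, 1, 1 and 4 of 10 were called higher and 1, 1, 5 and 4 lower. The order is yMSCs P30, yMSCs P100, aMSCs P30 and aMSCs P100, and 16.4% to 20.6% of all genes were called in each direction. Nt5e was called in all 4, with a mean change of -2.84. Neither of 2 endothelial markers was detected in any group. Of 14 macrophage and monocyte markers, 10 were detected in yMSCs P2, 5 in aMSCs P2 and 1 in each later group. Their summed linear level was 2038 to 4765 in yMSCs P2, 1062 to 2208 in aMSCs P2 and 432.9 to 842.8 in the 4 later groups. Itgam and Cd163 were detected on no array, Ptprc on 2 and Cd74 on 3 of the 18. Macrophage markers thus moved with every comparison against P2, and with donor age at P2, where 7 of 10 tested were lower in aMSCs (median -1.29). In the interactions of donor age with P30 and with P100 against P2, 3 of the 10 were called in each, all higher (medians 1.34 and 1.25). Their part in the results was not tested. In such bulk RNA, fewer cells of a type and less RNA per cell cannot be told apart.

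With passage in yMSCs, 4 of the 8 genes were called higher at P30 than at P2 (Ccnd1, Cdk4, Ccne2 and E2f1) and 1 lower (Cdkn2b). Over all tested genes 16.4% were called higher and 16.4% lower in that comparison. At P100 against P2, 5 were higher (the same 4 and Ccne1) and 2 lower (Rb1 and Cdkn2b), where 20.6% of all genes were higher and 18.7% lower. Between P30 and P100 the yMSCs differed in 1 gene, Ccnd1, which was higher at P100 (3.39% of all genes), and 0 genes were lower in limma (4.5% of all genes), with 1 at an unadjusted p under 0.05.

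In aMSCs at P30 against P2, 3 genes were called higher (Cdk6, Ccne1 and E2f1, against 19.3% of all genes) and 2 lower (Rb1 and Cdkn2b, against 20%). At P100 against P2, only Cdk4 was called higher (19.1% of all genes), and the same 2 genes were lower (18.6%). Between P30 and P100, 3 genes fell (Cdk6, Ccne1 and E2f1, against 12.2% of all genes), and 0 were called higher in limma (14.2% of all genes), with 1 at an unadjusted p under 0.05. The genes called higher at P30 were those called lower from P30 to P100. Both comparisons share the aMSCs P30 arrays, so this match is partly built in and is no independent result. Rb1 and Cdkn2b were called lower in groups undetected on all arrays, apart from Rb1 in aMSCs P100 (1 of 3 detected), so these calls rest on fitted values. Their lower bounds, given with each gene, pass the fold of 1.5 for Rb1 in aMSCs P30 and for Cdkn2b in aMSCs P100 only. Ccnd1, Ccne2, Cdk4, E2f1 and Cdkn2b stand in gene tables that the study chose on these arrays, so their directions are not independent evidence.

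**Figure D1:**
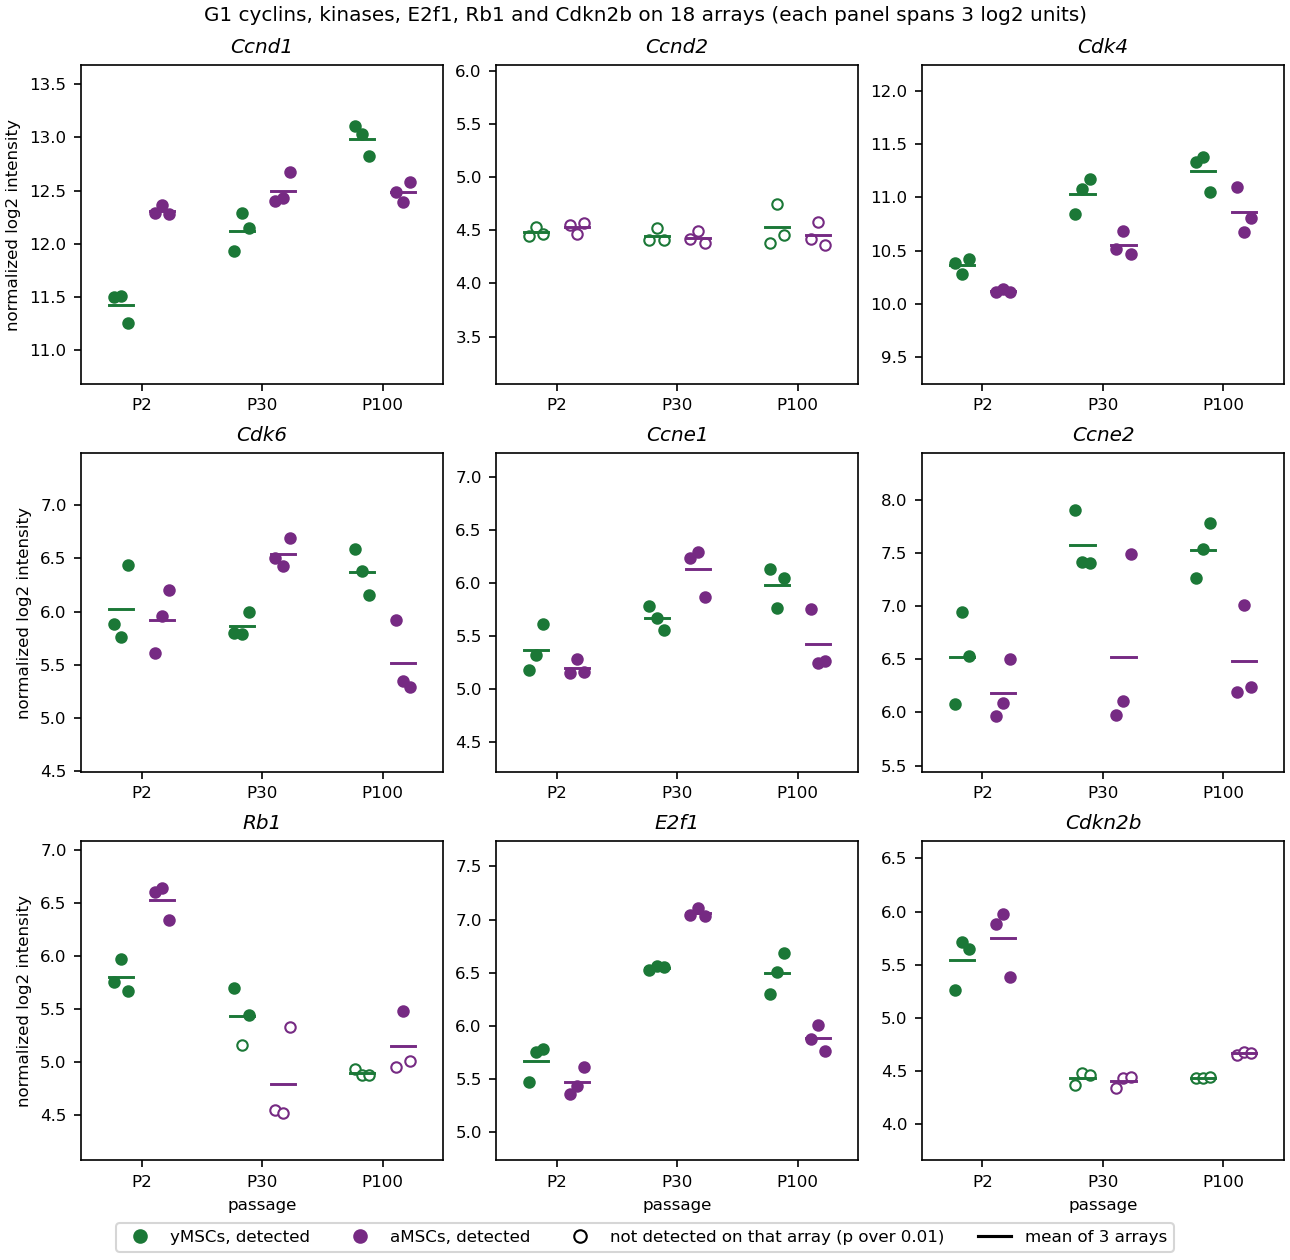
Normalized log2 intensity (vertical axis) of the 9 genes with a probe at P2, P30 and P100 (horizontal axis), 1 point an array, green for yMSCs and purple for aMSCs, open where the gene was not detected on that array, with a line at the mean of 3 arrays. Each panel spans the same number of log2 units, levels are not comparable between panels, and Cdkn2b is detected on the 6 arrays of P2 and on none of the 12 later ones.

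**Figure D2:**
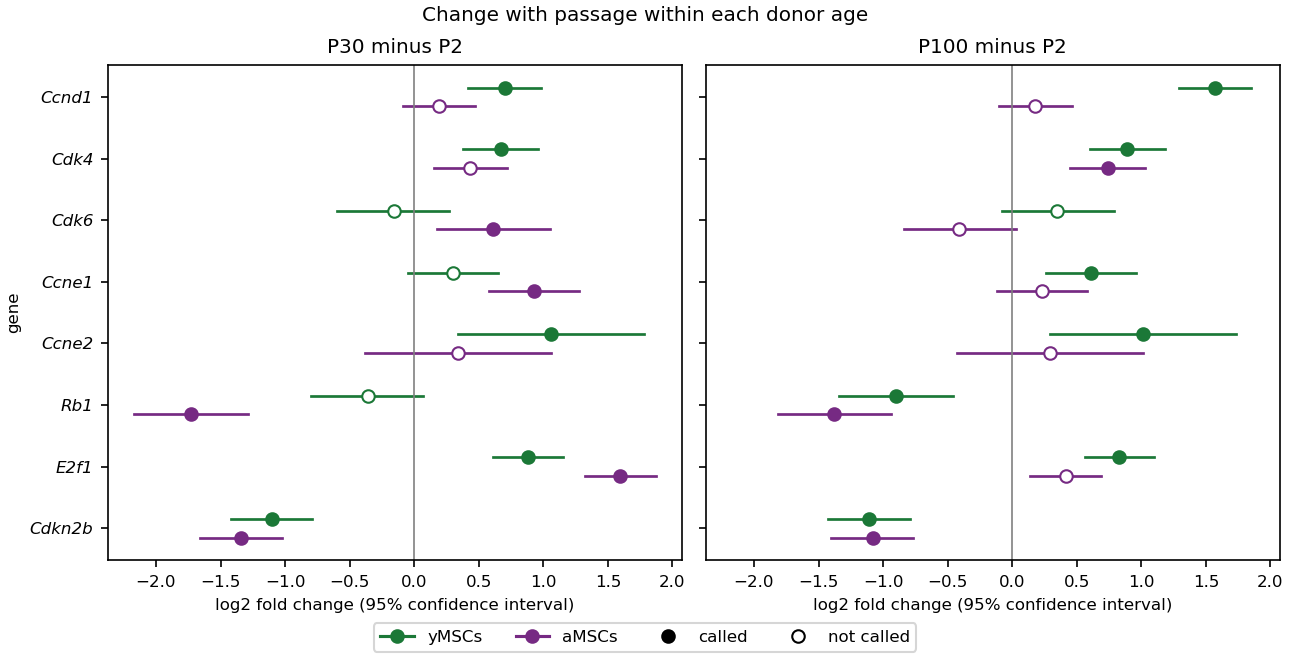
Log2 fold change of the 8 tested genes from P2 to P30 (left) and from P2 to P100 (right), with 95% confidence intervals, filled where called. Ccnd1 lies at 1.57 in yMSCs P100 and at 0.18 in aMSCs P100, while E2f1 lies furthest right in aMSCs P30, at 1.59.

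Promoter sequences show the letters that E2F and MYC factors are known to read, and are given for 3 of the genes and for a replication gene that serves below as an example of an E2F target. RefSeq promoters of build GRCr8, from 250 bases before to 50 bases after the start, were found for 5 of the 10 genes (Ccnd3, Ccne1, Cdk4, Rb1 and Cdkn2b). They were searched on both strands for 4 forms of the E2F site, TTTCCCGC, TTTCGCGC, TTTGCCGC and TTTGGCGC, and for the E-box CACGTG, which reads the same on both strands. Capitals mark the matches.
Cdk4, chr7:64771203-64771502, plus strand: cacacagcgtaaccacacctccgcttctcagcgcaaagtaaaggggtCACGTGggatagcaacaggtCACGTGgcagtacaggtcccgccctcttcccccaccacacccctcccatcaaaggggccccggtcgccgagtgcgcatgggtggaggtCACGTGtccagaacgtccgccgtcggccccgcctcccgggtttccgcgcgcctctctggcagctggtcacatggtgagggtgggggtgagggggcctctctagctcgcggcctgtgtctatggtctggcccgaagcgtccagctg
Ccne1, chr1:99927860-99928159, minus strand: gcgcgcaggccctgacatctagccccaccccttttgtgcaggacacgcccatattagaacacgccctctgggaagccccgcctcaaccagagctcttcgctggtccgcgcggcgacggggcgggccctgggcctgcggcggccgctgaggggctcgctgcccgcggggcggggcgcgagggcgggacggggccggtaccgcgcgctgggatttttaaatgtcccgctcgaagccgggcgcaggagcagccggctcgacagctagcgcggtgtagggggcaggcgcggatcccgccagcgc
Rb1, chr15:54911808-54912107, minus strand: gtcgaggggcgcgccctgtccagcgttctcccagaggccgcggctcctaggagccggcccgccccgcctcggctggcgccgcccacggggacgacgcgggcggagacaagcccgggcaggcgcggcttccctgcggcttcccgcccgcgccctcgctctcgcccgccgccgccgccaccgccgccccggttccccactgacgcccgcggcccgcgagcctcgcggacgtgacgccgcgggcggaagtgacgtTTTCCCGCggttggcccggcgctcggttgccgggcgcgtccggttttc
Mcm6, chr13:42404303-42404602, minus strand: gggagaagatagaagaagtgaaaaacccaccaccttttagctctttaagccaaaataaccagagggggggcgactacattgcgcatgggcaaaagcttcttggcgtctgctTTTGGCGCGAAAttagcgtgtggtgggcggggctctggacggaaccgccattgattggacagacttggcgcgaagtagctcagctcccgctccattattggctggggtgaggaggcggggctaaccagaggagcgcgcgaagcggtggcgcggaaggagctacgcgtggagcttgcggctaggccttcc
The Cdk4 promoter held the E-box at 3 places, with first bases at -203, -183 and -95 from the start, and no E2F form. The Rb1 promoter held TTTCCCGC once, with its first base at position 3 after the start. The Ccne1 promoter held neither, as did those of Cdkn2b and Ccnd3. The Mcm6 promoter held TTTGGCGC on the strand shown and TTTCGCGC on the other, with first bases at -139 and -135, so that both matches overlap. Of all 33469 promoters of this length, 2.14% held an E2F form and 6.42% the E-box. A match is a description of letters and says nothing about binding in these cells.

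Ccnd1, the D cyclin that growth factors induce in most mesenchymal cells, rose with passage in yMSCs. Its log2 intensity was 11.50, 11.51 and 11.25 on the arrays of yMSCs P2, 11.93, 12.29 and 12.15 at P30, and 13.11, 13.03 and 12.83 at P100. These 3 groups did not overlap, and each later passage lay above the one before. The change from P2 was 0.70 at P30 (SE 0.13, adjusted p = 0.000447) and 1.57 at P100 (SE 0.13, adjusted p = 4.94e-08), a 2.97-fold increase, and from P30 to P100 it was 0.87 (adjusted p = 0.000213). In aMSCs the values were 12.29, 12.36 and 12.28 at P2, 12.40, 12.43 and 12.67 at P30, and 12.49, 12.39 and 12.58 at P100. After this normalization every later array of aMSCs lay above every P2 array, with small changes of 0.19 at P30 (95% interval -0.09 to 0.47, adjusted p = 0.249) and 0.18 at P100 (-0.10 to 0.46, adjusted p = 0.285). Their sign depended on the processing. They were -0.14 and -0.32 with the authors' normalized intensities, -0.05 and -0.16 without normalization between arrays, and 0.07 and 0.05 with cyclic loess. The aMSCs thus started higher, by 0.89 at P2 (SE 0.13, adjusted p = 0.00039), with every aMSCs P2 array above every yMSCs P2 array, in a comparison in which the macrophage markers were lower. Ccnd1 was the 1 gene of the 8 called higher in aMSCs at P2 (1.76% of all genes), and 0 were called lower in limma (2.29% of all genes) or at an unadjusted p under 0.05. At P30 the difference of 0.37 did not pass (adjusted p = 0.0529), and at P100 it was -0.51 (adjusted p = 0.0095), below the fold for a call. The change to P100 differed between donor ages by -1.39 (SE 0.19, adjusted p = 4.94e-05), aged minus young, and the change from P30 to P100 by -0.88 (adjusted p = 0.00302). The rise of yMSCs to P30 did not pass with the authors' normalized intensities (0.32, adjusted p = 0.227) or without normalization between arrays (0.40, adjusted p = 0.101). The other 5 calls of Ccnd1 held in each of 29 refits.

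Ccnd2, the D cyclin best known in mice from lymphocytes and gonads, stayed at the background. Its detection p-value ran from 0.0752 to 0.805 over the 18 arrays and its scanner intensity from 31.9 to 35.6 at P2 and from 46.3 to 64.8 later, close to the undetected probes of the same arrays. No fold is given for it.

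Cdk4, the kinase partner of the D cyclins, rose with passage at both donor ages. The arrays of yMSCs gave 10.38, 10.28 and 10.42 at P2, 10.84, 11.08 and 11.17 at P30, and 11.33, 11.38 and 11.05 at P100. Those of aMSCs gave 10.11, 10.14 and 10.11 at P2, 10.51, 10.68 and 10.47 at P30, and 11.10, 10.67 and 10.81 at P100. Every array of P30 and P100 lay above every P2 array of the same donor age. The change from P2 was 0.67 in yMSCs P30 (SE 0.14, adjusted p = 0.000843), 0.89 in yMSCs P100 (adjusted p = 4.58e-05) and 0.74 in aMSCs P100 (adjusted p = 0.000299). In aMSCs P30 it was 0.43 (adjusted p = 0.0141), a 1.35-fold difference that stayed under the fold for a call. No interaction with donor age passed, with differences of -0.24 (95% interval -0.65 to 0.17) for the change to P30 and -0.15 (-0.56 to 0.25) for that to P100. With the authors' normalized intensities the rises of yMSCs P30 (0.33, adjusted p = 0.0966) and aMSCs P100 (0.37, adjusted p = 0.0615) did not pass, and without normalization between arrays both fell under the fold (0.41 and 0.52).

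Cdk6, the other kinase of the D cyclins, differed between donor ages in its course from P30 to P100. In yMSCs its values were 5.88, 5.76 and 6.44 at P2, 5.80, 5.79 and 6.00 at P30, and 6.59, 6.38 and 6.16 at P100. In aMSCs they were 5.61, 5.96 and 6.20 at P2, 6.50, 6.43 and 6.69 at P30, and 5.92, 5.35 and 5.29 at P100. Arrays of aMSCs lay above those of yMSCs at P30 and below them at P100, without overlap. From P30 to P100 Cdk6 fell by 1.02 in aMSCs (SE 0.21, adjusted p = 0.00117), while yMSCs had 0.52 (adjusted p = 0.152), and these changes differed by -1.54 (SE 0.29, adjusted p = 0.00124). Both values held in each of 29 refits. The aMSCs P30 rise over P2 of 0.61 (SE 0.21, adjusted p = 0.02) was lost in 8 refits, among them those without aMSCs P2 replicate 1 (0.46, adjusted p = 0.104) and without aMSCs P30 replicate 3 (0.54, adjusted p = 0.0602).

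Ccne1, a cyclin that activates CDK2 at the entry into S phase, was dim on all arrays, with detection p-values of 0.00242 to 0.0097. The arrays gave 5.18, 5.32 and 5.61 in yMSCs P2, 5.78, 5.67 and 5.56 in yMSCs P30, and 6.13, 5.76 and 6.05 in yMSCs P100. In aMSCs they gave 5.15, 5.28 and 5.16 at P2, 6.23, 6.29 and 5.87 at P30, and 5.75, 5.25 and 5.26 at P100. Mean levels were highest at P100 in yMSCs, where the arrays overlapped with P30, and at P30 in aMSCs, where they did not overlap with the other passages. The rise from P2 was 0.61 in yMSCs P100 (SE 0.17, adjusted p = 0.00594) and 0.93 in aMSCs P30 (adjusted p = 0.000231), and aMSCs then fell by 0.71 from P30 to P100 (adjusted p = 0.00358). The change from P30 to P100 differed between donor ages by -1.02 (SE 0.23, adjusted p = 0.00536). Without aMSCs P30 replicate 1 and 2, which set aMSCs P30 on 1 array, this difference was -0.76 (adjusted p = 0.0896) and the fall -0.45 (adjusted p = 0.209). The yMSCs P100 rise lay at the fold for a call (1.52-fold) and went under it in 7 refits, 4 of them without 1 array: 0.51 without yMSCs P2 replicate 1, 0.58 without yMSCs P2 replicate 2, 0.53 without yMSCs P100 replicate 1 and 0.57 without yMSCs P100 replicate 3. In scanner units the probe read 51.2 to 67.8 at P2 and 73.3 to 105 later, and the part of the shift in undetected probes in this gap was not tested.

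Ccne2, the other E-type cyclin, was higher in yMSCs at both late passages. Its values were 6.08, 6.95 and 6.53 in yMSCs P2, 7.91, 7.42 and 7.41 in yMSCs P30, and 7.27, 7.54 and 7.78 in yMSCs P100. The late arrays all lay above the P2 arrays, by 1.06 at P30 (SE 0.34, adjusted p = 0.0184) and 1.01 at P100 (SE 0.34, adjusted p = 0.0205). In aMSCs the arrays gave 5.97, 6.09 and 6.50 at P2, 5.98, 6.11 and 7.49 at P30, and 6.19, 7.01 and 6.24 at P100. These groups overlapped, with changes of 0.34 at P30 (95% interval -0.38 to 1.06) and 0.29 at P100 (-0.43 to 1.01). The change with passage did not differ between donor ages past the threshold, at -0.72 for both P30 and P100 (SE 0.48, adjusted p = 0.357 and 0.38). Every call of Ccne2 was lost in some refits. The yMSCs rises had 0.84 and 0.79 without yMSCs P2 replicate 1 (adjusted p = 0.0898 and 0.0985), the P30 rise 0.90 without yMSCs P30 replicate 1 (adjusted p = 0.0689) and the P100 rise 0.89 without yMSCs P100 replicate 3 (adjusted p = 0.0751).

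E2f1, the activator of S phase genes that RB1 restrains, had the largest positive change of the 8 genes in aMSCs P30 against P2. Its values were 5.47, 5.75 and 5.78 in yMSCs P2, 6.52, 6.56 and 6.55 in yMSCs P30, and 6.30, 6.51 and 6.68 in yMSCs P100. In aMSCs they were 5.36, 5.43 and 5.61 at P2, 7.04, 7.11 and 7.03 at P30, and 5.87, 6.01 and 5.76 at P100. All later arrays lay above all P2 arrays of the same donor age, and the aMSCs P30 arrays lay above every other array. The change from P2 was 0.88 in yMSCs P30 (SE 0.13, adjusted p = 4.44e-05), 0.83 in yMSCs P100 (adjusted p = 5.47e-05) and 1.59 in aMSCs P30 (adjusted p = 9.16e-08), a 3.02-fold increase. In aMSCs P100 the value was 0.42 (adjusted p = 0.0138), under the fold for a call, after a fall of 1.18 from P30 (adjusted p = 2.66e-06) that yMSCs did not share (-0.05, 95% interval -0.32 to 0.23). The change from P30 to P100 differed between donor ages by -1.13 (SE 0.18, adjusted p = 0.000303), a value that held in each of 29 refits. The change from P2 to P30 differed by 0.72 (SE 0.18, adjusted p = 0.0169), and without aMSCs P30 replicate 1 and 2 this was 0.69 (adjusted p = 0.126).

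Rb1, the pocket protein that holds E2F factors in check, went down toward the background with passage. It was detected on all 6 arrays of P2, on 2 of 3 arrays of yMSCs P30, on 1 of 3 of aMSCs P100 and on none of aMSCs P30 or yMSCs P100. The log2 values were 5.76, 5.97 and 5.67 in yMSCs P2, 5.70, 5.16 and 5.45 in yMSCs P30, and 4.94, 4.88 and 4.88 in yMSCs P100. In aMSCs they were 6.60, 6.64 and 6.34 at P2, 4.55, 4.52 and 5.33 at P30, and 4.96, 5.48 and 5.01 at P100. All late arrays of aMSCs lay below those of P2, whereas yMSCs P30 overlapped with yMSCs P2 (-0.36, adjusted p = 0.166). In scanner units the probe read 70.1 to 88.2 in yMSCs P2, 74.4 to 93.6 in yMSCs P30 and 66.8 to 67.6 in yMSCs P100. In aMSCs it read 108 to 117, 54.7 to 75.6 and 65 to 85.2. The undetected median was 31.3 to 34.72 at P2 and 51.6 to 56.19 later, and the part of this shift in the fall was not tested. In yMSCs P100 the mean of 4.90 was not detected against 5.80 at P2, which is at least 1.31-fold lower (adjusted p = 0.00171), and in aMSCs P30 the mean of 4.80 against 6.53 is at least 2.16-fold lower (adjusted p = 5.51e-06). Such a bound sets the undetected arrays at the lowest signal that was detected on the same array. The adjusted p-value beside it belongs to the fitted change and does not test the bound. In aMSCs P100, with 1 of 3 arrays detected, the fitted change was -1.38 (SE 0.21, adjusted p = 4.22e-05). At P2 all 3 arrays of aMSCs lay above those of yMSCs, by 0.73 (95% interval 0.29 to 1.17), which did not pass (adjusted p = 0.0566). The filter kept Rb1 and Cdkn2b through the groups in which they were high. Its interactions are drawn from such groups and give no measured size. The fitted change from P2 to P30 differed between donor ages by -1.37 (SE 0.29, adjusted p = 0.00541), and without aMSCs P30 replicate 1 and 2 by -0.84 (adjusted p = 0.14). The difference of 0.89 for P30 to P100 (adjusted p = 0.0375) involved aMSCs P30 and yMSCs P100, undetected on all arrays, and aMSCs P100, detected on 1 of 3, and was lost in 15 of 29 refits. It was 0.36 (adjusted p = 0.453) without aMSCs P30 replicate 1 and 2, and 0.73 to 0.91 (adjusted p = 0.059 to 0.0993) without any single array among yMSCs P30 replicate 1 or 3, aMSCs P30 replicate 1 or 2, yMSCs P100 replicate 1, 2 or 3, and aMSCs P100 replicate 2.

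Cdkn2b, the INK4 inhibitor of CDK4 and CDK6, was detected at P2 only. Its log2 values were 5.26, 5.71 and 5.65 in yMSCs P2 and 5.88, 5.98 and 5.38 in aMSCs P2, with all 6 arrays detected. On the 12 later arrays the values were 4.34 to 4.68 and none was detected. No later array overlapped with P2. The P2 means of 5.54 and 5.75 stood against 4.44 in yMSCs P30, 4.43 in yMSCs P100, 4.41 in aMSCs P30 and 4.67 in aMSCs P100. The later groups were at least 1.21-fold lower in yMSCs P30, 1.09-fold in yMSCs P100, 1.26-fold in aMSCs P30 and 1.57-fold in aMSCs P100. The limma fit gave adjusted p-values of 2.03e-05, 1.27e-05, 2.84e-06 and 1.89e-05 in that order. They belong to the fitted changes from undetected groups and do not test these bounds. In scanner units the probe read 58.3 to 81.5 at P2, above an undetected median of 31.3 to 34.72, and 47.9 to 60.1 later, around an undetected median of 51.6 to 56.19. The donor ages did not differ in Cdkn2b past the threshold at any passage, with 0.21 at P2 (95% interval -0.11 to 0.52).

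**Figure D3:**
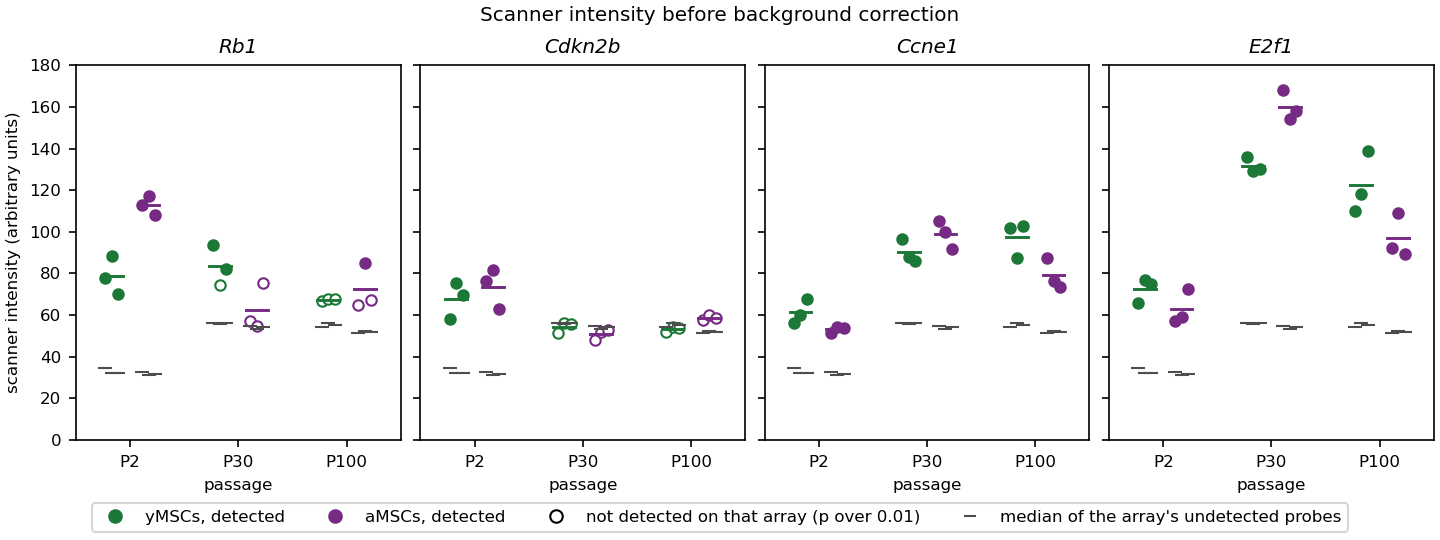
Scanner intensity in arbitrary units, before any background correction (vertical axis), of Rb1, Cdkn2b, Ccne1 and E2f1 at each passage (horizontal axis), 1 point an array, open where not detected, with a dash at the median of the undetected probes of the same array. Cdkn2b reads 47.9 to 60.1 on the later arrays, around those dashes, while E2f1 reads 89.5 to 168 there, above them.

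Between donor ages at P30, 1 of the 8 genes was called higher in aMSCs (Cdk6, against 8.12% of all genes) and 2 lower (Ccne2 and Rb1, against 9.53%). Cdk6 was higher by 0.68 (SE 0.21, adjusted p = 0.0264) with no overlap between the arrays, a call that was lost in 12 refits and had an adjusted p of 0.154 without aMSCs P30 replicate 1 and 2 (0.82), 0.0584 without aMSCs P30 replicate 3 (0.60) and 0.0555 to 0.0701 without either of the others or without yMSCs P30 replicate 1 or 2. Ccne2 was lower by a difference of -1.05 (SE 0.34, adjusted p = 0.0351), but the arrays overlapped, since aMSCs P30 replicate 3 read 7.49 and the other arrays of its group 5.98 and 6.11. Without aMSCs P30 replicate 1 and 2 the difference was -0.09 (adjusted p = 0.971), and with any single array of either group left out except aMSCs P30 replicate 3 its adjusted p lay between 0.0525 and 0.183. Rb1 split in the same way, at 5.33 on replicate 3 against 4.55 and 4.52. It was undetected on all 3 arrays of aMSCs P30, so it was at least 1.01-fold lower than in yMSCs P30. The fitted difference was -0.64 (adjusted p = 0.0357) and became -0.11 without replicate 1 and 2. Leaving out aMSCs P30 replicate 1 alone gave Rb1 -0.51 (adjusted p = 0.166), replicate 2 alone -0.50 (adjusted p = 0.174), yMSCs P30 replicate 1 -0.50 (adjusted p = 0.127) and yMSCs P30 replicate 3 -0.63 (adjusted p = 0.0794). With the replicate block its adjusted p was 0.0543. E2f1 had 0.51 (adjusted p = 0.00924) in the same comparison, under the fold for a call.

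At P100, 3 of the 8 genes were called lower in aMSCs (Cdk6, Ccne2 and E2f1, against 9.03% of all genes), and 0 were higher in limma (10% of all genes) or at an unadjusted p under 0.05. The arrays of both donor ages did not overlap for any of the 3. They did not overlap for Ccnd1, Ccne1, Rb1 and Cdkn2b either, which were not called, so this does not set the 3 apart. Rb1 and Cdkn2b lay near the background in both groups. The share of all genes without such overlap was not computed, so nothing is read from how many of these genes lacked it. Cdk6 had -0.86 (SE 0.21, adjusted p = 0.00549), Ccne2 -1.05 (SE 0.34, adjusted p = 0.033) and E2f1 -0.62 (SE 0.13, adjusted p = 0.00203). Ccnd1, Ccne1 and Cdk4 had smaller differences in the same direction of -0.51, -0.56 and -0.39, with adjusted p-values of 0.0095, 0.0209 and 0.0454, under the fold for a call. Ccne2 did not pass without yMSCs P100 replicate 2 (-1.05, adjusted p = 0.0799), yMSCs P100 replicate 3 (-0.93, adjusted p = 0.117), aMSCs P100 replicate 1 (-0.90, adjusted p = 0.117) or aMSCs P100 replicate 3 (-0.93, adjusted p = 0.089). E2f1 went under the fold without yMSCs P100 replicate 3 (-0.53) or aMSCs P100 replicate 3 (-0.56).

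The interaction of donor age with passage was called for 2 of the 8 genes for P30 against P2 (E2f1 and Rb1, against 11.8% of all genes in either direction), for 1 for P100 against P2 (Ccnd1, against 13.7%) and for 5 for P100 against P30 (Ccnd1, Cdk6, Ccne1, E2f1 and Rb1, against 21.9%). The calls of Rb1 rest on groups in which it was not detected, and leaving them aside the counts are 1, 1 and 4. In the last comparison the differences of those 4 genes were all negative, which means that their level in aMSCs fell relative to yMSCs. Over all 9531 genes, 996 were called negative and 1089 positive. The uncalled Ccne2 and Cdk4 had 0.01 and 0.08. Rb1 (0.89) and Cdkn2b (0.27) were positive, with values that rest on groups in which they were not detected.

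The levels of several genes ran together over the 18 arrays. Pearson's r was 0.86 for Ccne1 and E2f1, 0.85 for Rb1 and Cdkn2b, -0.82 for E2f1 and Cdkn2b, and -0.79 for Ccne1 and Rb1, while Cdk4 and Cdk6 had 0.13 and Ccnd1 and Ccne2 0.25. The arrays share passage and background, so these values are a description. Rb1 was detected on 9 and Cdkn2b on 6 of the 18 arrays. Every r with either one, here and below, therefore rests in part on undetected values. Among 6829 named tested genes other than these, those whose pattern was most like Ccnd1 were Pola2 (r = 0.89), Got1 (0.878) and Rassf9 (0.863), and most like E2f1 were Ube2t (0.943), Dxo (0.939) and Nop2 (0.939). Ccne2 ran with Depdc1b (0.924), Donson (0.897) and Ska3 (0.89). Cdk4 ran with Dcps (0.946), Umps (0.942) and Igf2bp1 (0.94). Ccne1 ran with Rrs1 (0.912), Pa2g4 (0.899) and Rrp9 (0.898), and Cdk6 with Psmd13 (0.825), Vrk2 (0.821) and Srm (0.815). Rb1 ran with Tgoln2 (0.956), Slc24a3 (0.956) and Rell1 (0.944), and Cdkn2b with Sugct (0.976), C2 (0.976) and Abcb9 (0.971).

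The target genes of E2F in S phase rose at every late passage. Of 16 tested, 14 were called higher in yMSCs P30 (16.4% of all genes), 16 in yMSCs P100 (20.6%), 14 in aMSCs P30 (19.3%) and 13 in aMSCs P100 (19.1%) against P2, and 0 lower in any of them in limma or at an unadjusted p under 0.05. Their median log2 fold changes were 1.63, 1.94, 1.35 and 1.19, beside 0.04, 0.06, 0.05 and 0.03 over all tested genes. The replicative helicase subunit Mcm6, whose promoter is shown above, rose by 2.66, 2.74, 2.54 and 2.43 in that order, and the maintenance methyltransferase Dnmt1 by 2.38, 2.68, 2.33 and 2.15. The helicase subunits Mcm3 and Mcm7 rose by 2.29 and 2.39 in yMSCs P100 and by 1.28 and 1.66 in aMSCs P100. In aMSCs against yMSCs at P100, 10 of the 16 were lower (9.03% of all genes), with a median of -0.65 beside -0.02 over all genes. Of the 17 genes of this list with a promoter in the RefSeq table, 12 held an E2F form, beside 2.14% of all promoters. These 17 are not the same genes as the 16 tested. The list was written as E2F targets, so this count is no independent evidence on the rise. Markers of G2 and mitosis rose in the same way, in 7 of 7 tested in both late groups of yMSCs and in 6 of 7 in those of aMSCs, and 0 fell in limma or at an unadjusted p under 0.05. Plk1, a mitotic kinase, rose by 2.32, 2.50, 2.84 and 1.87, Tpx2, a spindle assembly factor, by 2.61, 2.66, 2.80 and 2.09, the mitotic kinase Cdk1 by 1.78, 2.06, 1.90 and 1.59, and its cyclin Ccnb2 by 1.66, 1.97, 2.03 and 1.71.

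The other kinase inhibitors did not move as 1 group. Of 5 tested, 0 rose (1 at an unadjusted p under 0.05) and 2 fell in yMSCs P30 against P2 in limma, 1 rose and 0 fell in yMSCs P100 (0 at an unadjusted p under 0.05), 1 rose and 1 fell in aMSCs P30, and 2 rose and 2 fell in aMSCs P100. With 16.4% to 20.6% of all genes called in each direction of these comparisons, counts of 1 of 5 are near the background. Cdkn1a, the p53 target p21, fell by 1.35 in yMSCs P30 (SE 0.23, adjusted p = 0.000203), had -0.06 in yMSCs P100, and fell in aMSCs P30 (-0.88) and aMSCs P100 (-1.29). At P100 it was lower in aMSCs than in yMSCs, at -1.65. It was detected on 2 of 3 arrays in each of yMSCs P30, aMSCs P30 and aMSCs P100, so these falls are fitted values near the background. By Western blot, the study reports more p21 protein at P30 and P100 than at P2 for both donor ages, the other direction from the mRNA falls. It reports the same for p16 protein. Cdkn2a, the gene of p16, had no named probe among the inhibitors, so its mRNA was not tested here. The study's proliferation assay found no difference between these passages. Cdkn3, a phosphatase that acts on CDK2, fell by 0.99 in yMSCs P30 and by 1.25 in aMSCs P100, and had -0.06 and 0.34 in the other late groups. Cdkn2c, the INK4 inhibitor p18, was detected on 0 of 6 arrays of P2 and on 4 of the 12 later ones, with 1 of 3 each in yMSCs P100 and aMSCs P30 and 2 of 3 in aMSCs P100. It was called higher in these 3 groups, but no fold is given so close to the background.

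Among 6 tested pocket proteins and members of the E2F and DP families, 1 to 2 rose and 1 to 2 fell in each late group, beside 16.4% to 20.6% of all genes in each direction. Mybl2, an E2F target that works with the MuvB complex, rose from P2 groups in which 1 of 3 arrays each detected it, by fitted changes of 2.03, 2.02, 2.02 and 1.22. Rbl2, the pocket protein p130 of resting cells, fell in yMSCs by 0.74 at P30 and by 1.22 at P100, and had -0.38 and -0.15 in aMSCs, which did not pass. Its change to P100 differed between donor ages by 1.07. Tfdp2, a partner of E2F factors, was detected on all 6 arrays of P2 and on 1 of the 12 later ones. The filter thus kept Tfdp2 through the P2 groups, in which it was high. It had a fitted change of -0.73 in yMSCs P30, with 1 of 3 arrays detected. It was at least 1.26-fold lower in yMSCs P100, 1.45-fold in aMSCs P30 and 1.81-fold in aMSCs P100. Only the last of these bounds passes the fold of 1.5. The fitted changes were called in all 4 late groups, which does not test the bounds. Of 20 other G1/S kinases, cyclins and regulators, 8, 8, 6 and 4 rose and 3, 1, 2 and 2 fell, in the order yMSCs P30, yMSCs P100, aMSCs P30 and aMSCs P100, where 16.4%, 20.6%, 19.3% and 19.1% of all genes rose and 16.4%, 18.7%, 20% and 18.6% fell. The 4 of 20 that rose in aMSCs P100 are thus near the background. Ccna2, the S phase cyclin, rose by 1.81, 2.13, 1.94 and 1.43, and Fbxo5, an inhibitor of the anaphase-promoting complex, by 1.85, 1.96, 1.59 and 1.20. Myc, whose protein binds the E-box, rose by 0.61 in yMSCs P30, 0.79 in yMSCs P100 and 1.07 in aMSCs P30. In aMSCs P100 it had 0.57 (adjusted p = 0.0193), under the fold for a call. Cks1b, a small subunit of CDK complexes, rose by 0.89, 1.28 and 1.11 in yMSCs P30, yMSCs P100 and aMSCs P30. In aMSCs P100 it had 0.58 (adjusted p = 0.0359), also under the fold.

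**Figure D4:**
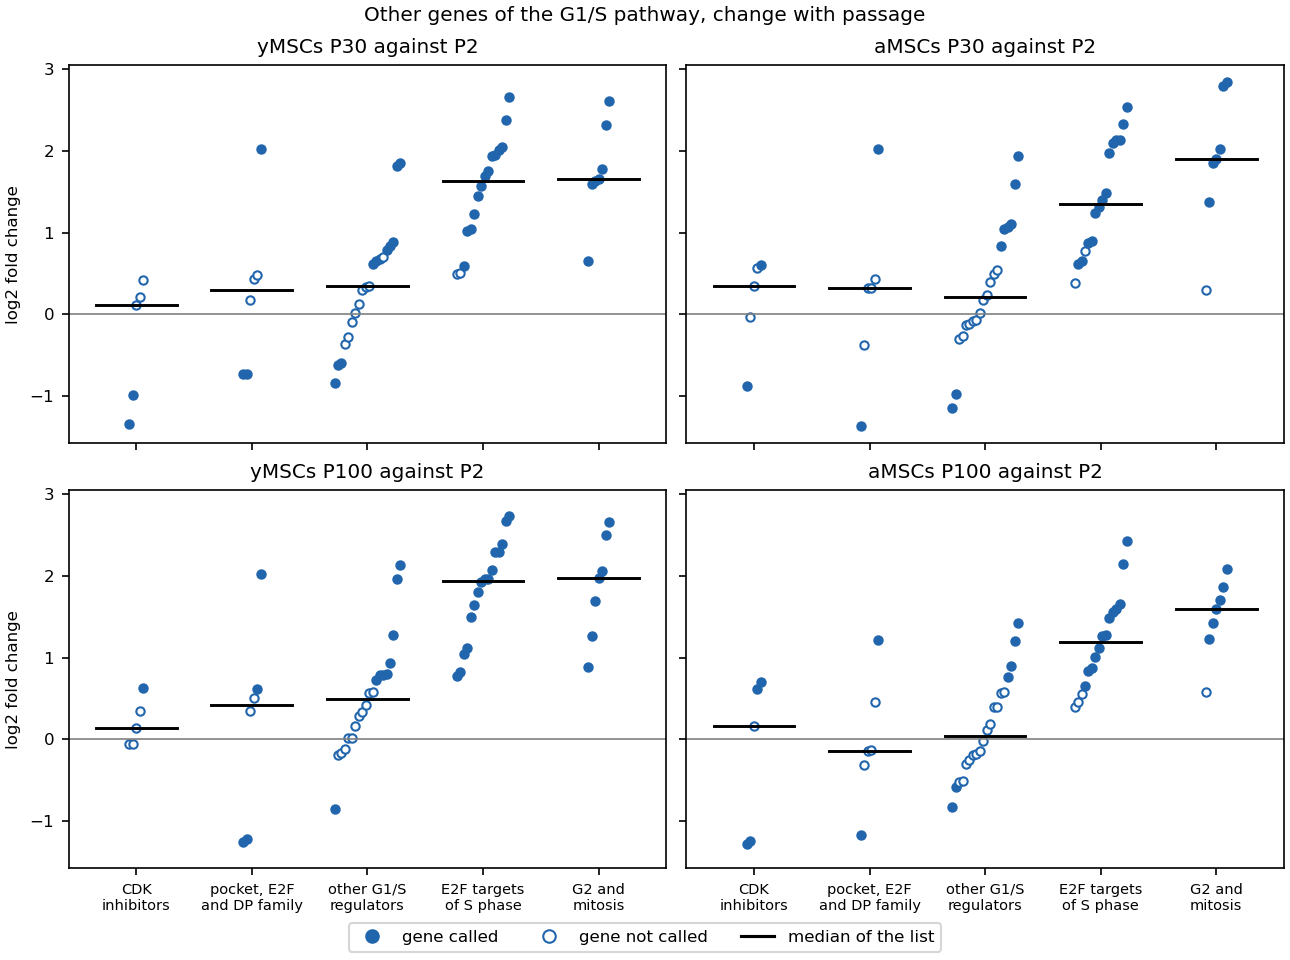
Log2 fold change against P2 (vertical axis) of every tested gene of 5 lists of the G1/S pathway (horizontal axis), 1 point a gene, filled where called, with a line at the median of the list, for yMSCs (left) and aMSCs (right) at P30 (top) and P100 (bottom). The E2F targets have medians of 1.63, 1.35, 1.94 and 1.19 in the order of the panels by row, while the CDK inhibitors hold genes on both sides of 0.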

How the data were processed

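RNA of cultured rat bone marrow MSCs was hybridised to Illumina RatRef-12 BeadChips, 18 arrays in 6 groups assigned by their labels. The authors deposited a scanner intensity per probe, the mean bead signal, neither background-subtracted nor normalized, and beside it a detection p-value against the negative controls, deposited as BeadStudio 3 gave it. The authors also deposited intensities normalized with the rank invariant algorithm, used as an alternative. The genome build is not given in the sources used here, and 70 probes whose entries do not pair between both tables were left unnamed.

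Log2 values came from neqc of limma 3.58.1 in R 4.3.3 (normexp with an offset of 16, then quantile normalization). Genes with a mean detection p of at most 0.01 in at least 1 group were tested, with the brightest probe of a gene, in 1 limma fit of 6 group means to all 18 arrays (12 residual and 4.51 prior degrees of freedom, two-sided, Benjamini-Hochberg over 9531 genes). Calls needed an adjusted p under 0.05 and a fold of at least 1.5. Where a group was undetected on all arrays, "at least" folds use the lowest detected signal of each array, and the measured means stand beside them. Adjusted p-values given with such folds are those of the fitted change. Arrays have no depth, and their precision follows from signal above background. Only 3 arrays a group limit the precision, and an exact permutation test of 3 against 3 cannot go below p = 0.1.

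On simulated data for yMSCs P30 against P2, over 9531 genes, 16, 40, 49 and 49 of 50 changed genes were called at folds of 1.5, 2, 3 and 4, with 9 unchanged genes called. Only these few genes changed in the simulation, with independent noise and no array that stood apart. In the data 3126 genes were called in this comparison, so these rates need not carry over. Alternatives were the authors' intensities, another offset, floor, normalization, filter, array weights, arrays left out, a replicate block and other thresholds. No source says that replicate numbers pair arrays. The deviations of 45 same-numbered pairs correlated at -0.72 to 0.57, with 6 over 0.1, which does not settle whether they do.

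The genes and lists, the latter written from textbook knowledge, were chosen with earlier results of these data known. Of each list, up to 4 genes are named, those with the largest mean change against P2 among genes called in at least 2 of 4 such comparisons. For each gene, the 3 named genes with the highest Pearson r are given.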

Additional observations from a re-analysis of the deposited data

Results flagged for a closer look

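The passage changes of 5 genes differed between donor ages by the interaction test of limma, aged minus young. Ccnd1 differed by -1.39 for P100 against P2 and by -0.88 for P100 against P30. For P100 against P30, Cdk6 differed by -1.54, Ccne1 by -1.02, E2f1 by -1.13 and Rb1 by 0.89. For P30 against P2, E2f1 differed by 0.72 and Rb1 by -1.37. The Rb1 values rest on groups in which it was not detected and give no measured size. Dixon's rule for a single far sample needs 4 samples and was not run on these groups of 3.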

How the results depend on the processing

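Of 39 calls of single genes, 15 held in all 29 refits and 0 reversed. The number of the 8 genes called changed by over 1.5 times in these cases. With the authors' intensities it was 2 for yMSCs P30 against P2 and 1 for aMSCs against yMSCs at P30. With an offset of 50 it was 3 for yMSCs P100 against P2, 3 for aMSCs P30 against P2, 1 between donor ages at P30 and at P100, and 1 for donor age by P30 against P2, and the Cdkn2b calls of yMSCs P30, yMSCs P100 and aMSCs P100 went under the fold (-0.54, -0.54 and -0.57). Without normalization between arrays it was 2 and 4 for yMSCs P30 and P100 against P2, 1 between donor ages at P100 and 1 for donor age by P30 against P2. Between donor ages at P2 it was 2 with a floor, with only the arrays compared or at an unadjusted p, and 3 with array weights. At P30 it was 0 with no filter, 1 with only the arrays compared and 5 with no threshold on the fold, which gave 6 at P100. Array weights, whose fit did not fully converge, gave 5 and 3 for donor age by P30 and by P100 against P2, and an unadjusted p gave 4 and 2. A fold of 2 gave 2 and 3 for yMSCs P30 and P100 against P2, 0 for yMSCs P100 against P30, 3 for aMSCs P30 against P2, 0, 1 and 1 between donor ages at P2, P30 and P100, and 1 and 3 for donor age by P30 against P2 and by P100 against P30.

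Leaving out 1 array, or aMSCs P30 replicate 1 and 2 together, gave 4 to 5 called genes for yMSCs P30, 5 to 7 for yMSCs P100, 4 to 5 for aMSCs P30 and 3 to 4 for aMSCs P100 against P2, and 1 for yMSCs and 2 to 4 for aMSCs for P100 against P30. Between donor ages it gave 1 to 2 at P2 (2 without yMSCs P30 replicate 1, aMSCs P30 replicate 3, aMSCs P100 replicate 2 or the pair), 0 to 3 at P30 (0 without yMSCs P30 replicate 1, aMSCs P30 replicate 1, aMSCs P30 replicate 2 or the pair, 1 without yMSCs P30 replicate 2 or 3) and 1 to 3 at P100 (1 without aMSCs P100 replicate 3). For donor age by passage it gave 0 to 5 for P30 against P2 (5 without aMSCs P30 replicate 3, 0 without the pair), 1 to 2 for P100 against P2 (2 without yMSCs P2 replicate 3 or aMSCs P100 replicate 1) and 3 to 5 for P100 against P30 (3 without the pair). The replicate block gave 2 genes in place of 3 between donor ages at P30 and 4 in place of 5 for donor age by P100 against P30, in both cases without Rb1, and changed no other call of the 8 genes. As no source says that the numbers pair the arrays, this block is a check only. Each gene has 1 probe, so no second probe could be tried. The median of all genes moved by up to -0.15 against P2 without normalization and -0.10 with the authors' intensities, beside 0.03 to 0.06 in the fit. Among all genes called against P2, 49.1% to 52.5% were higher, against 38% for yMSCs P30 and 40.6% for aMSCs P30 and P100 with the authors' intensities. Without normalization the share was 33.5% for yMSCs P30, 32.4% for yMSCs P100, 31.4% for aMSCs P30 and 71.1% (52.6% in the fit) between donor ages at P100, 68% (53.8%) for aMSCs P100 against P30, and 74.6% (59.4%) and 72.5% (52.2%) for donor age by P100 against P2 and against P30. With cyclic loess it was 42.4% for yMSCs P30 and P100 and 39.8% for aMSCs P30. Of all genes, 386 were called between donor ages at P2 (808 with array weights, 243 with only the arrays compared, 227 at a fold of 2), 1682 at P30 (2584, 705 and 802, and 538 without the pair) and 1123 for donor age by P30 against P2 (3104 with array weights, 452 without the pair, 2090 without aMSCs P30 replicate 3). Dim genes limit these data: Ccne1, Cdk6, E2f1, Rb1 and Cdkn2b lie within a few units of log2 of the background, where folds depend on the offset.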
